A study of Mus musculus with 24 samples.

Results

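Gabrp, Muc4, Lgi2 and Sprr2f are 4 genes of epithelial or secreted proteins, chosen from the 54532 gene identifiers of the series because their counts were near 0 in wild-type kidneys and raised in knockout kidneys after 2 or 12 weeks of diet. The rule sets no numeric threshold, and knockout against wild type is the contrast it used, so the values of that contrast are given as a description with no test. RNA was sequenced from whole kidneys of mice whose proximal tubule cells lack LRP2 (group KO) and of wild-type littermates (group WT), all fed a Western diet, with 6 libraries in each of KO at 12 weeks, WT at 12 weeks, KO at 2 weeks and WT at 2 weeks. Lrp2 encodes megalin, a large receptor that takes filtered proteins up into proximal tubule cells. The labels do not state the driver of the deletion, call the mice LRP2-SM22 without saying what SM22 stands for, and no group on another feed was among the samples. The labels do not say that each library came from its own mouse, so p-values measure the spread between these samples, which may be technical.

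Gabrp encodes the pi subunit of the GABA type A receptor, a ligand-gated chloride channel family best known from neurons; pi is a subunit of non-neuronal tissues such as uterus. Muc4 encodes a large membrane mucin of wet epithelia that can bind the receptor tyrosine kinase ErbB2. Lgi2 encodes a secreted leucine-rich repeat protein of the LGI family, whose members bind receptors of the ADAM22 and ADAM23 type. Sprr2f encodes a small proline-rich protein, a family of cross-linked precursors of the cornified envelope of stratified epithelia that is also found in stressed simple epithelia.

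Total counts per library, in megacounts, ranged from 11.3 to 15.2 in KO and 11.4 to 14.5 in WT at 12 weeks, and from 16.3 to 25.2 in KO and 15.6 to 34.1 in WT at 2 weeks. Levels are in CPM, that is, reads of a gene per megacount after TMM scaling. Lrp2 averaged 322 ± 73 CPM in KO and 1874 ± 382 CPM in WT at 12 weeks, and 352 ± 142 CPM in KO and 2002 ± 261 CPM in WT at 2 weeks (SD, n = 6 each), with no overlap of the groups at either duration. All 12 proximal tubule markers were detected in every group, and their summed level was 5891 to 9189 CPM in KO and 10834 to 14841 CPM in WT at 12 weeks. The predicted gene Gm42418 had 71635 to 424892 counts in KO and 86843 to 401812 in WT libraries at 12 weeks and 0 in every library at 2 weeks, so duration cannot be told apart from other differences between the 2 sets of libraries. In whole-kidney RNA, fewer cells of a type and less RNA per cell cannot be told apart.

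The genes lie on 4 chromosomes of mm10, all protein-coding: Gabrp on chromosome 11 (33550781 to 33578959, minus strand), Muc4 on chromosome 16 (32735886 to 32782391, plus strand), Lgi2 on chromosome 5 (52533517 to 52566462, minus strand) and Sprr2f on chromosome 3 (92365187 to 92366442, plus strand). All 4 matched a promoter in the RefSeq table (GRCm38.p6). The 250 bases before the RefSeq start are shown for Sprr2f and its neighbour Sprr2e, because Sprr2e stayed at 1 count in 24 libraries. Those of Muc4, and for Gabrp the 248 bases before its annotated first exon, are shown beside them, because these genes differ from Sprr2f in how their levels stood at the 2 durations. Each is written 5′ to 3′ on the strand of the gene, and capitals mark matches to 8 motifs searched on both strands.
Sprr2f: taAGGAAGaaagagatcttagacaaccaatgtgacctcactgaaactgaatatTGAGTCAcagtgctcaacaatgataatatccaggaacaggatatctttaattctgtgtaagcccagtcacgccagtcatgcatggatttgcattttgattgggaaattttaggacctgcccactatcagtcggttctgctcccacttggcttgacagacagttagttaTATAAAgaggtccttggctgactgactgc
Sprr2e: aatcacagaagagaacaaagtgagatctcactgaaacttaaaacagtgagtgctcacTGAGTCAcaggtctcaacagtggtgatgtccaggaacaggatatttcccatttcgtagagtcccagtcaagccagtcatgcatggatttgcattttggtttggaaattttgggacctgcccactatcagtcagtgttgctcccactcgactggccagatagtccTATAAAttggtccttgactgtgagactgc
Muc4: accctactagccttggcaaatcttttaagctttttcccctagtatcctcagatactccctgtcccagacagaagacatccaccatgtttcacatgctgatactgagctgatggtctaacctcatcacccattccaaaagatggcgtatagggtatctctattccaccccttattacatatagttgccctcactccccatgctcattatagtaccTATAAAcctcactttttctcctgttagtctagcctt
Gabrp: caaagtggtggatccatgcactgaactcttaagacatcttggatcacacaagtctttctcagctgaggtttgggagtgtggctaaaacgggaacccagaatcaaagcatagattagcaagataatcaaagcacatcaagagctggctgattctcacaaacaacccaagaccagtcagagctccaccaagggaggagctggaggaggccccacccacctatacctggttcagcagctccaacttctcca
The windows are chr3:92364937-92365186 (plus), chr3:92351893-92352142 (plus), chr16:32735636-32735885 (plus) and chr11:33578960-33579207 (minus).

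The AP-1 motif was searched as TGANTCA. For STAT factors the letters were TTCNNNGAA and for NF-kB GGGNNTTCC. For C/EBP factors they were TTGCNNAA and for Grainyhead-like (GRHL) factors AACCNGTT. The ETS motif was AGGAAG, the TATA box its usual core of TATAAA, and the motif of KLF and Sp factors (KLF/Sp) GGGCGG. Sprr2f held an ETS match from -248 to -243, an AP-1 match from -197 to -191 and a TATA box from -29 to -24, counted back from the base before the start. Sprr2e held the AP-1 match from -193 to -187 and the TATA box from -29 to -24. Of 236 aligned positions of the 2 promoters 187 (79.2%) were identical. Across 14 Sprr genes with a promoter in the table, 9 held both an AP-1 and a TATA match, among them Sprr2b, Sprr2d, Sprr2i and Sprr2k, which had 0 counts in all 24 libraries. Sprr2f and Sprr1a, which had counts, were also among those that held both. Sprr2a1, Sprr2a2 and Sprr2a3, which had counts, and Sprr4, which had none, held neither motif. Sprr2g had no promoter among those searched, so its letters are not known here. Whether the motifs bear on the levels was not tested. Muc4 held a TATA box from -36 to -31, and Gabrp held none of the 8 motifs. The Lgi2 window, of which 156 bases lie in the annotated first exon and which is not printed, held 2 KLF/Sp matches and 72.4% G and C, against 49.2% in Gabrp, 43.6% in Muc4 and 42.4% in Sprr2f. Among 32851 promoters of the same length, 6.75% held the AP-1, 7.02% the STAT, 4.98% the NF-kB, 9.56% the C/EBP, 1.79% the GRHL, 29.5% the ETS, 12.4% the TATA and 32.7% the KLF/Sp motif.

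Read counts of the 4 genes could be assigned with few reservations. No 50-base stretch of the Gabrp, Muc4 or Lgi2 transcript occurs in another gene, and 4 of 560 (0.714%) in Sprr2f occur in Sprr2e. The 3′ end of Muc4 overlaps Muc20 on the opposite strand over 4973 bases, of which 627 are exonic in both (5.33% of the Muc4 and 15.6% of the Muc20 exon length). Whether reads were counted by strand is not stated, so Muc4 and Muc20 counts from that stretch cannot be told apart. The genes Gm43685 and Gm43686 overlap introns of Lgi2 but no exon.

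**Figure D1:**
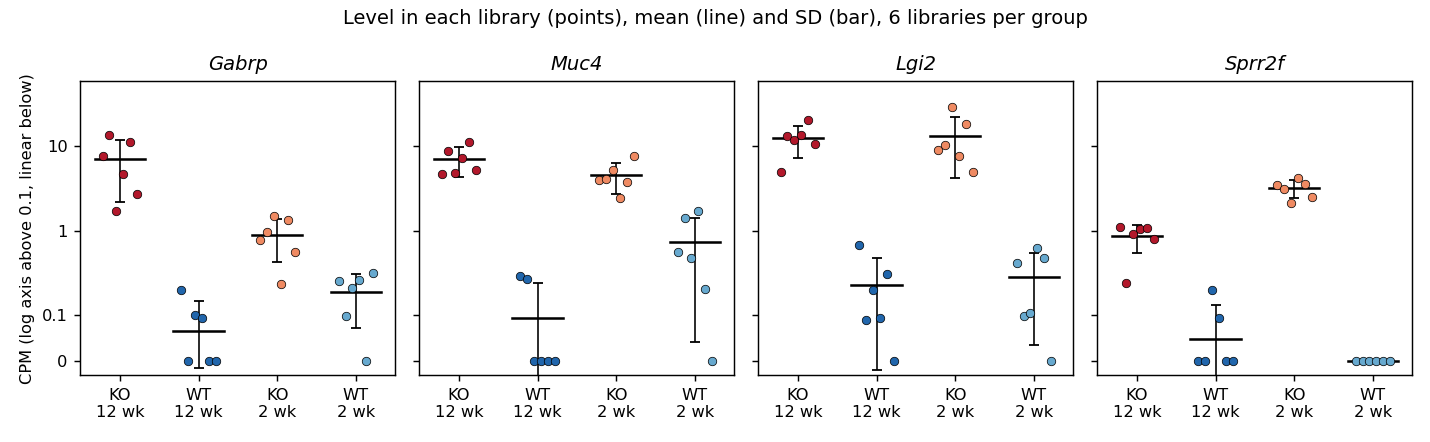
Level of Gabrp, Muc4, Lgi2 and Sprr2f in CPM (log axis above 0.1, linear below) in each of 6 libraries per group, with the mean (line) and SD (bar, cut at the lower edge where it passes 0). Gabrp stands higher in KO at 12 than at 2 weeks, Sprr2f lower, and Lgi2 and Muc4 overlap between the durations.

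Gabrp was at 0 to 2 counts in wild-type libraries at 12 weeks and higher in every knockout library, and at 2 weeks it was low in both genotypes. At 12 weeks its counts in KO replicates 1 to 6 were 112, 171, 21, 64, 194 and 38 (7.8, 13.7, 1.72, 4.7, 11.4 and 2.75 CPM), against 2, 0, 1, 1, 0 and 0 in WT. Every KO library was above every WT library, and KO replicates 2 and 5 were far above KO replicates 3 and 6. At 2 weeks the counts were 22, 17, 35, 5, 26 and 10 in KO (0.232 to 1.48 CPM), against 9, 2, 4, 5, 0 and 5 in WT (0 to 0.31 CPM). The lowest KO library lay within the WT range, so the groups overlapped at 2 weeks. The mean was 7.02 ± 4.84 CPM in KO and 0.0644 ± 0.0793 CPM in WT at 12 weeks (SD, n = 6 each), a ratio of 109 (log2 6.77) that rested on 4 WT counts and was 7.52 on the log2 scale without WT replicate 1. It was 0.892 ± 0.471 CPM in KO and 0.187 ± 0.116 CPM in WT at 2 weeks, a ratio of 4.77. At 2 weeks Gabrp did not pass the filter on low counts for that comparison.

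Muc4 was present in every knockout library at both durations. At 12 weeks its counts were 67, 110, 59, 99, 193 and 73 in KO (4.66, 8.84, 4.83, 7.26, 11.4 and 5.29 CPM), against 3, 3, 0, 0, 0 and 0 in WT. At 2 weeks they were 112, 72, 126, 52, 73 and 138 in KO (3.97, 4.07, 5.32, 2.41, 3.78 and 7.72 CPM), against 20, 29, 9, 33, 3 and 0 in WT (0.555, 1.41, 0.467, 1.7, 0.201 and 0 CPM). The groups did not overlap at either duration, but the lowest KO and highest WT libraries at 2 weeks were close, at 2.41 and 1.7 CPM. The mean was 7.04 ± 2.67 CPM in KO and 0.093 ± 0.144 CPM in WT at 12 weeks, a ratio of 75.8 (log2 6.24). Without WT replicate 1 or 2, the 2 libraries that hold all 6 WT counts, the log2 ratio was 7.05 or 6.91. At 2 weeks the mean was 4.54 ± 1.81 CPM in KO and 0.723 ± 0.681 CPM in WT, a ratio of 6.29. The wild-type level itself differed between the durations, with 6 counts in all at 12 weeks and 94 at 2 weeks, a ratio of means of 0.129 that was not tested here.

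Lgi2 was raised in knockout kidneys to about the same level at both durations. At 12 weeks its counts were 71, 164, 144, 187, 351 and 147 in KO (4.94, 13.2, 11.8, 13.7, 20.7 and 10.6 CPM), against 7, 1, 2, 1, 3 and 0 in WT. At 2 weeks they were 254, 183, 700, 165, 361 and 88 in KO (9, 10.3, 29.5, 7.64, 18.7 and 4.92 CPM), against 15, 2, 2, 12, 7 and 0 in WT. KO and WT libraries stood apart at both durations, and the widest spread was among KO libraries at 2 weeks, where replicate 3 was highest. The mean was 12.5 ± 5.1 CPM in KO and 0.227 ± 0.246 CPM in WT at 12 weeks, a ratio of 54.9 (log2 5.78, and 6.52 without WT replicate 1). It was 13.4 ± 9.18 CPM in KO and 0.284 ± 0.25 CPM in WT at 2 weeks, a ratio of 47.

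Sprr2f was absent from every wild-type library at 2 weeks and low in knockout kidneys at 12 weeks. At 12 weeks its counts were 16, 3, 11, 14, 18 and 11 in KO (1.11, 0.241, 0.901, 1.03, 1.06 and 0.797 CPM), against 0, 0, 2, 1, 0 and 0 in WT. At 2 weeks they were 99, 55, 50, 92, 70 and 45 in KO (3.51, 3.11, 2.11, 4.26, 3.62 and 2.52 CPM), against 0 in all 6 WT libraries. The groups did not overlap at either duration, although KO replicate 2 at 12 weeks, with 3 counts, was barely above the highest WT library. The mean was 0.857 ± 0.323 CPM in KO and 0.0483 ± 0.0817 CPM in WT at 12 weeks, a ratio of 17.7 (log2 4.15, and 5.52 without WT replicate 3). With 3 WT counts, the ratio of summed counts scaled by library size was 18.7 with an exact 95% interval of 6.17 to 93, which covers counting error only. At 2 weeks the mean was 3.19 ± 0.782 CPM in KO, at least 134-fold higher than WT against a floor of 3 counts over the 6 WT libraries (0.0238 CPM). Sprr2f did not pass the filter on low counts at 12 weeks.

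Knockout and wild-type libraries thus did not overlap for 4 of 4 genes at 12 weeks and for 3 of 4 at 2 weeks. Among all genes tested, the KO libraries all lay above the WT libraries for 10.6% at 12 weeks and 10.2% at 2 weeks. The members were picked on this contrast, so nothing is read from their count.

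Per exon length, the order of the 4 genes differed between the durations. At 12 weeks the mean level in KO, in RPKM, was 2.08 ± 1.43 for Gabrp, 1.91 ± 0.781 for Lgi2, 1.41 ± 0.53 for Sprr2f and 0.599 ± 0.227 for Muc4 (SD, n = 6). Neighbours among the first 3 differed by less than their SD. At 2 weeks the mean level in KO was 5.23 ± 1.28 RPKM for Sprr2f, 2.05 ± 1.41 for Lgi2, 0.386 ± 0.154 for Muc4 and 0.264 ± 0.14 for Gabrp. Muc4 and Gabrp differed by less than their SD, and Sprr2f stood highest.

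Levels at the 2 durations within knockout kidneys are given for the 4 genes as a description with no test, because KO levels at each duration entered the choice of the members. Gabrp passed the filter on low counts at 12 weeks and not at 2 weeks in the comparisons with WT, and Sprr2f at 2 weeks and not at 12 weeks, so a difference between the durations was partly built into their choice. Gabrp was at 1.72 to 13.7 CPM in KO libraries at 12 weeks and 0.232 to 1.48 CPM at 2 weeks, a ratio of means of 7.87 (fitted log2 fold change 2.95, SE 0.53). Sprr2f was at 0.241 to 1.11 CPM at 12 weeks and 2.11 to 4.26 CPM at 2 weeks, a ratio of 0.269 (log2 fold change -1.88, SE 0.28). For both genes the libraries of the 2 durations did not overlap. Muc4 had a ratio of 1.55 and overlapping libraries (log2 fold change 0.63, SE 0.27, interval of 2 SE from 0.08 to 1.18). Lgi2 also overlapped, with a ratio of 0.936 (log2 fold change -0.11, SE 0.44, interval of 2 SE from -0.98 to 0.76). Among all genes, groups that did not overlap made up 7.05% higher and 6.54% lower at 12 weeks, and nothing is read from the members' count against these shares. The edgeR test of this comparison called 28.7% of all genes, 14.8% higher and 14% lower, which is the background for the relatives of the 4 genes.

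**Figure D2:**
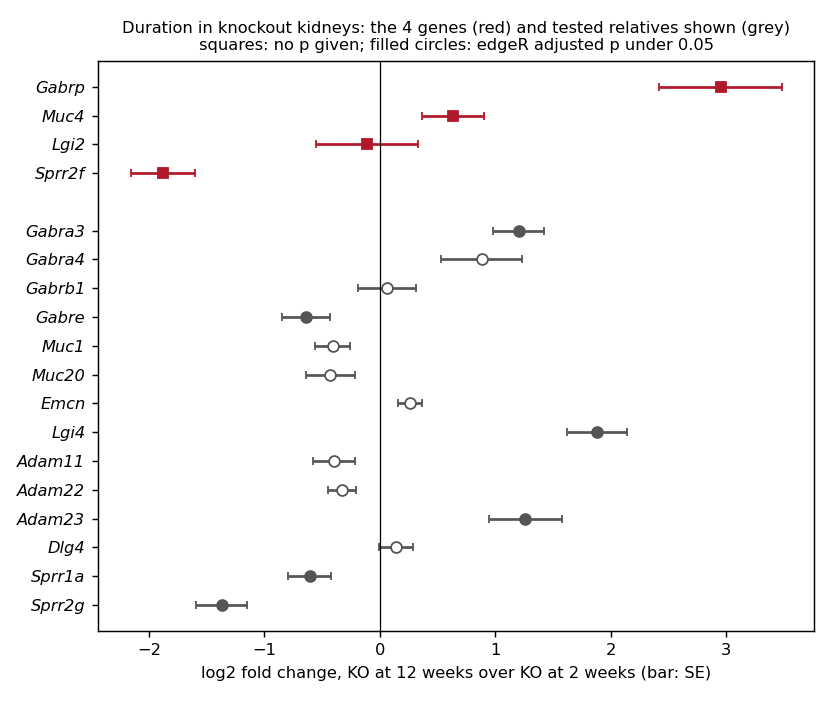
Log2 fold change in KO kidneys, 12 weeks over 2 weeks, with its SE, for the 4 genes (red) and for the tested relatives reported here in the families of GABA receptor subunits, mucins, LGI and ADAM proteins, and Sprr proteins (grey); the 4 genes (squares) are shown with no p, and filled grey circles are relatives with an edgeR adjusted p under 0.05. Gabrp (2.95) and Sprr2f (-1.88) lie at opposite ends, and Sprr2g (-1.37) and Sprr1a (-0.61) lie on the side of Sprr2f. WT is not shown, and Sprr1a was also lower at 12 weeks there (ratio of means 0.465).

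The Sprr family was measured as 15 genes of 1 cluster on chromosome 3, and only 3 of them, Sprr2f, Sprr2g and Sprr1a, were counted above 101 reads in any group. Sprr2g, an annotated polymorphic pseudogene 7473 bases from Sprr2f, was at 1.74 ± 0.439 CPM in KO and 0.0956 ± 0.124 CPM in WT at 12 weeks, an 18.2-fold difference (log2 fold change 4.11, SE 0.50, edgeR adjusted p = 3.12e-05). At 2 weeks it was at 4.46 ± 1.04 CPM in KO and 0.0635 ± 0.0592 CPM in WT, a 70.1-fold difference (log2 fold change 5.92, SE 0.38, edgeR adjusted p = 3.4e-09). For Sprr2g, KO and WT libraries did not overlap at either duration. Sprr1a, which lies 117510 bases from Sprr2f and also encodes an envelope precursor, rose 4.53-fold at 12 weeks (7 ± 1.97 CPM in KO and 1.55 ± 0.982 CPM in WT, edgeR adjusted p = 0.00215) and 3.18-fold at 2 weeks (10.6 ± 2.19 CPM in KO and 3.33 ± 0.935 CPM in WT, edgeR adjusted p = 1.69e-06). Within KO, Sprr2g fell by 1.37 on the log2 scale at 12 against 2 weeks (SE 0.22, edgeR adjusted p = 0.000259) and Sprr1a fell by 0.61 (SE 0.19, edgeR adjusted p = 0.0266). Sprr1a was also lower at 12 weeks in WT, with a ratio of means of 0.465 and no overlap, against 0.662 in KO. Its fall was thus not particular to KO. For Sprr2g the WT ratio was 1.5, on 6 counts at 12 weeks and 9 at 2 weeks. The WT ratios were not tested. Sprr2a1, the next most counted, had 23 counts in KO and 7 in WT at 12 weeks and 58 in KO and 101 in WT at 2 weeks, so it was not on the side of Sprr2f at 2 weeks. Of the other 11, 6 had 0 counts in every library, and Sprr2e and Sprr2h, the nearest to either side of Sprr2f and Sprr2g, had 1 each. No stretch of 50 bases is shared between the Sprr2f and Sprr2g transcripts.

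**Figure D3:**
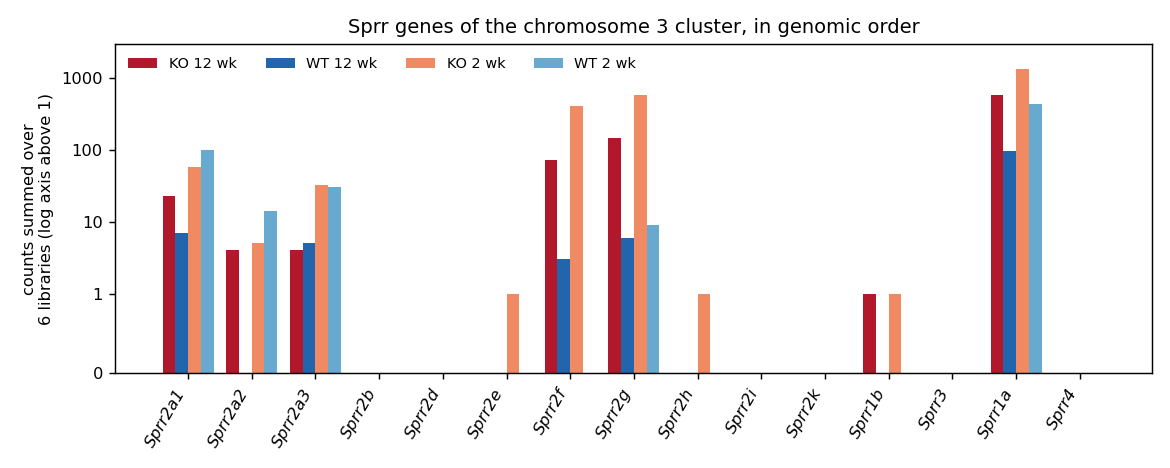
Counts summed over 6 libraries per group (log axis above 1) for the 15 Sprr genes in genomic order. Sprr2f and its neighbour Sprr2g hold 411 and 586 counts in KO at 2 weeks, between genes with 0 or 1 count.

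Among the other genes of cornified envelopes, no common direction was seen. At 12 weeks 1 of 5 tested genes rose and 2 fell, and at 2 weeks 2 of 6 rose. Ppl, the gene of the desmosomal plakin periplakin, rose 2.27-fold at 12 weeks (13.7 ± 3.56 CPM in KO and 6.04 ± 1.94 CPM in WT, edgeR adjusted p = 0.000812) and 1.34-fold at 2 weeks (edgeR adjusted p = 0.0301). Krt10, a keratin of differentiated epidermis, fell to 0.587 of WT at 12 weeks (5.52 ± 0.928 CPM in KO and 9.4 ± 1.33 CPM in WT, edgeR adjusted p = 0.000962). Evpl, the gene of envoplakin, was the most counted at 29.3 ± 6.79 CPM in KO and 38 ± 8.35 CPM in WT at 12 weeks (edgeR adjusted p = 0.13). Flg, the filaggrin gene, had no count in either genotype at 12 weeks and 0.431 CPM in KO and 0.423 CPM in WT at 2 weeks. Lor, the loricrin gene, averaged 0.19 CPM in KO and 0.0497 CPM in WT at 12 weeks and 0.469 CPM in KO and 0.482 CPM in WT at 2 weeks. The median log2 fold change of the tested genes was -0.34 at 12 weeks and 0.00 at 2 weeks, against -0.01 over all genes at both durations. Over all genes, the test called 21.7% higher and 19.4% lower at 12 weeks and 18.1% higher and 13.4% lower at 2 weeks, which is the background for the counts in this and the next paragraphs (41.1% and 31.6% in either direction).

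For Gabrp, few of the other receptor subunit genes passed the filter on low counts: of 18 listed, 5 were tested at 12 weeks and 6 at 2 weeks. Gabra3, an alpha subunit, rose 1.63-fold at 2 weeks (5.03 ± 1.66 CPM in KO and 3.08 ± 0.579 CPM in WT, edgeR adjusted p = 0.0095) and Gabrr2, a rho subunit, fell to 0.503 (edgeR adjusted p = 0.0103). Within KO, Gabra3 rose at 12 against 2 weeks (log2 fold change 1.20, SE 0.22, edgeR adjusted p = 0.000709) and Gabre fell (-0.64, SE 0.21, edgeR adjusted p = 0.0342). WT levels differed in the same directions, which was not tested. Gabra3 in WT was at 7.81 ± 2.97 CPM at 12 weeks and 3.08 ± 0.579 CPM at 2 weeks. Gabre in WT was at 2.04 ± 0.597 CPM at 12 weeks and 2.99 ± 0.893 CPM at 2 weeks. Of 9 tested genes of GABA synthesis, transport and breakdown 6 fell at 12 weeks and of 10 tested 4 fell at 2 weeks, with none higher at either. Their median log2 fold change was -0.39 at 12 weeks and -0.24 at 2 weeks. Of 12 tested proximal tubule markers 11 fell at 12 weeks and 9 at 2 weeks, with none higher (median -0.65 and -0.51). Whether the falls of the 2 lists are linked was not tested. Abat, the GABA transaminase gene, fell to 0.632 of WT at 12 weeks (306 ± 76.3 CPM in KO and 483 ± 87.3 CPM in WT, edgeR adjusted p = 0.00641) and to 0.649 at 2 weeks (246 ± 51 CPM in KO and 379 ± 49.6 CPM in WT, edgeR adjusted p = 0.000909).

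The mucins other than Muc4 were few. Of 13 matched mucin genes 3 were tested, and Muc1 and Muc20 rose at both durations. Muc1, a membrane mucin of most simple epithelia, rose 3.56-fold at 12 weeks (27.7 ± 7.21 CPM in KO and 7.77 ± 1.39 CPM in WT, edgeR adjusted p = 2.71e-06) and 3.43-fold at 2 weeks (36.4 ± 5.35 CPM in KO and 10.6 ± 2.34 CPM in WT, edgeR adjusted p = 2.13e-08). Muc20, whose 3′ end overlaps that of Muc4, rose 1.91-fold at 12 weeks (8.6 ± 2.35 CPM in KO and 4.5 ± 1.75 CPM in WT, edgeR adjusted p = 0.00523) and 1.54-fold at 2 weeks (11.5 ± 3.45 CPM in KO and 7.48 ± 2.18 CPM in WT, edgeR adjusted p = 0.0296). Erbb2, named because Muc4 can bind its product, did not pass at 12 weeks (72.9 ± 8.84 CPM in KO and 68.5 ± 10.7 CPM in WT, log2 fold change 0.13, SE 0.10, edgeR adjusted p = 0.336) or at 2 weeks (82 ± 11.6 CPM in KO and 76.1 ± 3.87 CPM in WT, 0.14, SE 0.09, edgeR adjusted p = 0.24). Nrg1, a ligand of ErbB receptors, rose 1.44-fold at 12 weeks (edgeR adjusted p = 0.0215) and 2.04-fold at 2 weeks (25 ± 5.04 CPM in KO and 12.2 ± 2.2 CPM in WT, edgeR adjusted p = 9.99e-06). Of the 7 genes in the ErbB list, 2 rose and 1 fell at 12 weeks, and 1 rose and 1 fell at 2 weeks.

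Of the 5 tested genes in the list of LGI proteins, their ADAM receptors and the scaffold gene Dlg4, 3 rose at 12 weeks and 4 at 2 weeks, with none lower. Adam23, a receptor for LGI proteins, rose 3.64-fold at 12 weeks (3.35 ± 1.05 CPM in KO and 0.92 ± 0.463 CPM in WT, edgeR adjusted p = 0.000468) and 2.57-fold at 2 weeks (1.39 ± 0.687 CPM in KO and 0.542 ± 0.271 CPM in WT, edgeR adjusted p = 0.00675). Adam22, the other named receptor, was not called at 12 weeks (6.55 ± 0.995 CPM in KO and 6.37 ± 1.45 CPM in WT, edgeR adjusted p = 0.739). Nor was it called at 2 weeks (8.18 ± 0.4 CPM in KO and 7.94 ± 1.42 CPM in WT, edgeR adjusted p = 0.731). Lgi4, a relative of Lgi2, rose 2.71-fold at 12 weeks (3.53 ± 0.922 CPM in KO and 1.3 ± 0.832 CPM in WT, edgeR adjusted p = 0.00388), though 23.8% of its span lies opposite Fxyd3 and its value is uncertain. Adam23 and Lgi4 rose between the durations within KO (log2 fold change 1.26 and 1.88, SE 0.32 and 0.26, edgeR adjusted p = 0.00751 and 5.15e-05), where the log2 fold change of Lgi2 was -0.11. In WT too the means were higher at 12 than at 2 weeks, which was not tested. They were 0.92 ± 0.463 and 0.542 ± 0.271 CPM for Adam23, and 1.3 ± 0.832 and 0.448 ± 0.242 CPM for Lgi4. Dlg4, a scaffold protein linked to LGI receptors at synapses, rose 1.76-fold at 12 weeks (edgeR adjusted p = 0.00196) and 1.39-fold at 2 weeks (edgeR adjusted p = 0.00102).

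Among epithelial transcription factors and genes of cytokine signalling through the shared receptor chain gp130, most tested genes were higher in knockout kidneys. Of 16 tested epithelial transcription factor genes 12 rose and 1 fell at 12 weeks and 10 rose and none fell at 2 weeks (median log2 fold change 1.04 and 0.84). Sox9, a factor of tubule repair, rose 4.78-fold at 12 weeks (edgeR adjusted p = 0.000277) and 11.6-fold at 2 weeks (9.43 ± 2.75 CPM in KO and 0.81 ± 0.228 CPM in WT, edgeR adjusted p = 5.79e-09). Klf6 rose 2.08-fold at 12 weeks (83.4 ± 8.94 CPM in KO and 40.1 ± 3.45 CPM in WT, edgeR adjusted p = 6.03e-07). Of 16 tested genes of the gp130 and STAT3 pathway 11 rose at each duration, while 2 fell at 12 and 1 at 2 weeks (median 1.16 and 1.07). Lif, a gp130 ligand, rose 7.67-fold at 12 weeks (5.86 ± 0.517 CPM in KO and 0.764 ± 0.289 CPM in WT, edgeR adjusted p = 4.44e-07) and 22.3-fold at 2 weeks (13.3 ± 2.49 CPM in KO and 0.596 ± 0.306 CPM in WT, edgeR adjusted p = 8.35e-10). Socs3, a feedback inhibitor that STAT3 induces, rose 7.44-fold at 12 weeks (28.3 ± 5.14 CPM in KO and 3.81 ± 1.16 CPM in WT, edgeR adjusted p = 2.16e-07).

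Markers of other epithelia that the samples could hold were compared. Of the 17 urothelium markers of the renal pelvis, 17 had counts in KO and 16 in WT at 12 weeks, where Krt13 was at 0, and all 17 had counts in both genotypes at 2 weeks. Their summed level was 32.6 to 65 CPM in KO and 22.7 to 36.4 CPM in WT at 12 weeks, and 38.6 to 71.8 CPM in KO and 50.2 to 65 CPM in WT at 2 weeks. The ranges overlapped at both durations. Of 8 tested markers 2 rose and none fell at 12 weeks, and of 12 tested 1 rose and 3 fell at 2 weeks. The 2 that rose at 12 weeks were Ppl and Psca, a surface protein gene (4.79 ± 3.64 CPM in KO and 1.11 ± 0.787 CPM in WT, 4.32-fold, edgeR adjusted p = 0.00885). Psca was at 5.73 ± 4.47 CPM in KO and 4.12 ± 1.68 CPM in WT at 2 weeks (edgeR adjusted p = 0.503). No uroplakin gene, the defining genes of urothelium, passed as higher at either duration: Upk3a was at 1.67 ± 1.26 CPM in KO and 0.87 ± 0.452 CPM in WT at 12 weeks (edgeR adjusted p = 0.188) and at 1.89 ± 1.14 CPM in KO and 2.41 ± 0.559 CPM in WT at 2 weeks (edgeR adjusted p = 0.495). Upk1a fell to 0.656 of WT at 2 weeks (2.79 ± 0.869 CPM in KO and 4.25 ± 0.704 CPM in WT, edgeR adjusted p = 0.0338). Krt5, a basal keratin, was at 1.21 ± 0.818 CPM in KO and 0.279 ± 0.279 CPM in WT at 12 weeks, where it was not tested, and at 1.07 ± 0.482 CPM in KO and 1.04 ± 0.254 CPM in WT at 2 weeks. Also untested at 12 weeks, Krt15 was at 1.34 ± 1.02 CPM in KO and 0.391 ± 0.304 CPM in WT and Krt14 at 0.29 ± 0.455 CPM in KO and 0.0326 ± 0.0506 CPM in WT. The largest parts of the WT sum at 2 weeks were Gsta4 (20.9 ± 2.17 CPM) and Ppl (11.5 ± 1.33 CPM), which are not uroplakins. All 15 markers of injured tubule rose at both durations, with a summed level of 3231 to 6511 CPM in KO and 764 to 931 CPM in WT at 12 weeks, and 6499 to 12622 CPM in KO and 958 to 1233 CPM in WT at 2 weeks. The leukocyte list reached 373 to 991 CPM in KO and 56 to 229 CPM in WT at 12 weeks, and 235 to 603 CPM in KO and 45.9 to 79.3 CPM in WT at 2 weeks. The part of these cell types in the levels of the 4 genes was not tested.

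**Figure D4:**
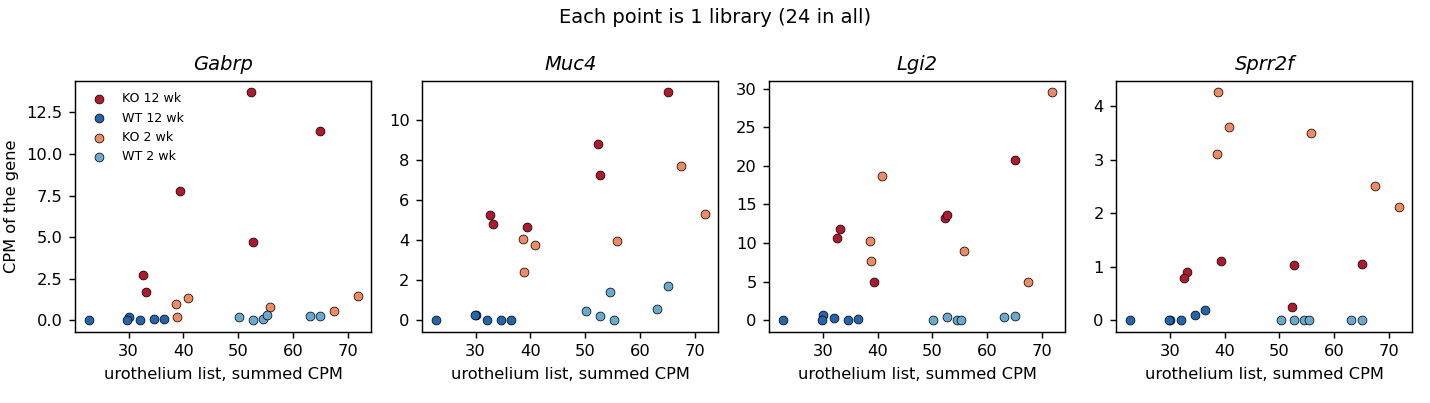
Level of each of the 4 genes (vertical axis, CPM) against the summed level of 17 urothelium markers (horizontal axis, CPM) in 24 libraries. The WT library of 2 weeks with the highest sum (65 CPM) had the highest Muc4 (1.7 CPM) and Lgi2 (0.619 CPM) of its group, 0.258 CPM of Gabrp and no Sprr2f count. This is 1 library. Over all 6 WT libraries of 2 weeks the sum had r = 0.45 with Gabrp, 0.41 with Muc4 and 0.56 with Lgi2 (exact permutation p = 0.369, 0.41 and 0.263). Without the 2 libraries farthest from the median, r was 0.11, -0.26 and -0.40.

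How the 4 genes vary among libraries of the same group was described by 36 relations, each within the 6 libraries of 1 KO group, and by 3 in WT at 2 weeks that were added after seeing the data. After adjustment over the 39 none passed, with a smallest adjusted exact permutation p of 0.286 for Pearson's r and 0.217 for Spearman's rho. With 6 libraries the smallest unadjusted exact permutation p that untied ranks can reach is 0.00278. Over 39 relations no single one, however close, could have passed alone. That none passed therefore says little about any 1 of them. Unadjusted, 6 were under 0.05 by Pearson and 5 by Spearman. In KO at 12 weeks Muc4 went with the urothelium sum (r = 0.93, exact permutation p = 0.0278, adjusted 0.286; rho = 0.71, exact permutation p = 0.136, adjusted 0.569), and r was 0.90 without the 2 libraries farthest from the median. In KO at 2 weeks the same relation had r = 0.78 (exact permutation p = 0.0444, adjusted 0.286) and rho = 0.60 (exact permutation p = 0.242, adjusted 0.628), and r was 0.39 without 2 libraries. Gabrp was higher where Lrp2 was lower in KO at 12 weeks (r = -0.74, exact permutation p = 0.0472, adjusted 0.286; rho = -0.94, exact permutation p = 0.0167, adjusted 0.217; r = -0.72 without 2 libraries). Among the 4 genes, Muc4 and Lgi2 went together in KO at 12 weeks (r = 0.79, exact permutation p = 0.0361, adjusted 0.286; rho = 0.89, exact permutation p = 0.0333, adjusted 0.26; r = 0.65 without 2 libraries), where in KO at 2 weeks r was -0.08. In KO at 2 weeks Gabrp and Lgi2 had r = 0.76 (exact permutation p = 0.075, adjusted 0.366) and rho = 0.94 (exact permutation p = 0.0167, adjusted 0.217), and r was 0.99 without 2 libraries. Muc4 and Sprr2f ran opposite to each other there (r = -0.84, exact permutation p = 0.0319, adjusted 0.286; rho = -0.94, exact permutation p = 0.0167, adjusted 0.217; r = -0.99 without 2 libraries). Lgi2 went with Lcn2, a marker of injured tubule, in KO at 2 weeks (r = 0.87, exact permutation p = 0.0222, adjusted 0.286; rho = 0.89, exact permutation p = 0.0333, adjusted 0.26; r = 0.55 without 2 libraries). None of these relations passed the adjustment.

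The genes most like each of the 4 were found by Pearson correlation of log2(CPM + 0.1) over the 12 KO libraries after removal of the mean of each duration, among 15417 genes. Gabrp was most like Anxa1 (r = 0.94), Cd86 (0.93), Zfp667 (0.92), Zdhhc20 (0.90) and Gpnmb (0.90), and Anxa1 lies wholly opposite another gene, so its counts are uncertain. Muc4 was most like Styk1 (0.90), Gsdmc2 (0.90), Muc20 (0.89), Bmpr1b (0.89) and Tbx3 (0.87), of which Muc20 may share reads with it. Lgi2 was most like Cdr2l (0.94), Dpysl3 (0.94), Stra6 (0.93), Rapgef4 (0.92) and Foxj1 (0.92); 61% of the span of Stra6 and 18.5% of that of Rapgef4 lie opposite another gene, so both are uncertain. Sprr2f was most like Mocos (0.91), Zfp551 (0.89), Cfap65 (0.88), Wdr93 (0.88) and Itih1 (0.88), of which Cfap65 is uncertain with 15.8% of its span opposite another gene. In this order r was 0.96, 0.94, 0.90, 0.92 and 0.91 in KO at 12 weeks alone. It was 0.77, 0.68, 0.91, 0.73 and 0.79 in KO at 2 weeks alone. The 12-week values include replicate 2, with 3 counts of Sprr2f. In the list of each of the 4 genes, the other 3 ranked between 710 and 14085, with r between -0.46 and 0.56 over both durations. These correlations describe the libraries, share their depth, and have no p. The most similar genes were picked as the highest of 15417, so a high r is partly built into their choice.

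Genes with a WT mean under 0.1 CPM and a KO mean of at least 1 CPM at the same duration numbered 55 at 12 weeks and 22 at 2 weeks, with 8 in both. These limits resemble the rule that chose the 4 genes. Nothing is therefore read from their presence or rank in these sets. Muc4 and Gabrp had the highest KO levels of the 55, at 7.04 and 7.02 CPM, followed by immunoglobulin segments such as Ighv1-19 (6.02 ± 11.5 CPM in KO). At 2 weeks Sprr2f ranked 6 among the 22, after Cxcl5 (9.54 ± 4.68 CPM in KO), Mmp7 (7.92 ± 4.45 CPM, uncertain for a gene on the opposite strand), Il1f6 (5.83 ± 1.84 CPM), Cxcl2 (5.07 ± 1.03 CPM) and Sprr2g, and before Ccl20 and Arhgap36. Lgi2 is in neither set, with WT means of 0.227 CPM at 12 weeks and 0.284 CPM at 2 weeks, and none of the 4 genes is in both. Of the 4, Muc4 and Gabrp meet these limits at 12 weeks alone and Sprr2f at 2 weeks alone.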

How the data were processed

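The deposited values are raw counts of reads for Ensembl genes, whole numbers with no normalization. Per the submitters' processing notes, the authors used fastp, STAR 2.5, HTSeq 0.6.1 and the build mm10. Options, strand handling and gene annotation are not stated there. Of 54532 identifiers 54495 matched GENCODE M21, which gave symbols, exon lengths and overlaps. The test was edgeR's robust quasi-likelihood F test (version 4.0.16, R 4.3.3) after TMM scaling and filterByExpr (minimum count 10, total 15), two-sided with Benjamini-Hochberg adjustment over all tested genes and a threshold of 0.05 and fitted on the 12 libraries of each comparison. Duration within KO was planned as a test of the 4 members too, and their values are given here without a p. SE is the absolute log2 fold change over the square root of F. CPM use TMM-scaled library sizes over 24 libraries and RPKM the exon length. The members and the 19 gene lists (235 entries, 234 matched, Muc17 not) were chosen with earlier results of these data known. Named besides the members are Lrp2, up to 3 called genes per list and duration with the smallest adjusted p, the 5 most similar genes, and the 8 highest of genes near 0 in WT; other named genes were chosen after their values were seen. Intervals and floors (3 counts) cover counting error only. The fits were tested on simulated data. As alternatives, DESeq2 1.42.0, scaling by RLE, by upper quartile or by total counts, other filters, all 24 libraries in 1 fit, a replicate block and leaving out each library were run. Some genes of the lists are not reported here.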

Additional observations from a re-analysis of the deposited data

Results flagged for a closer look

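Among 15 groups of 6 libraries examined for a value far from the others, 1 was flagged, near the 1 in 20 that chance gives. It is Sprr2f in KO kidneys at 12 weeks, where replicate 2 had 0.241 CPM (3 counts), far below the other 5 libraries at 0.797 to 1.11 CPM. The gap to the nearest library was 0.636 of the range of the group, just above Dixon's critical value. The same library had the highest Gabrp (13.7 CPM) and the lowest Lrp2 (185 CPM) of its group, and Sprr2g was also lowest there (0.965 CPM). Without it the log2 fold change of Sprr2f in KO at 12 against 2 weeks was -1.70.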

How the results depend on the processing

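The number of called genes stayed within 1.5 times of the value given in every alternative run. Replicate numbers did not pair the libraries (correlations of deviations between equal numbers lay between -0.33 and 0.17). With the replicate block, duration in KO gave log2 fold changes of 2.83 for Gabrp, -1.91 for Sprr2f, 0.63 for Muc4 and 0.03 for Lgi2, and 3859 called genes. The sign of Lgi2 thus turned with the block; without each library in turn it ranged from -0.32 to 0.30, including 0.07 without KO replicate 1 at 12 weeks and 0.30 and 0.00 without KO replicates 3 and 5 at 2 weeks. Over the left-out libraries Gabrp ranged from 2.66 to 3.17, Sprr2f from -1.98 to -1.70, and Muc4 from 0.43 to 0.84. KO over WT ratios at 12 weeks, on the log2 scale, ranged over the left-out libraries from 6.46 to 7.52 for Gabrp, 5.98 to 7.05 for Muc4, 5.52 to 6.52 for Lgi2 and 3.89 to 5.52 for Sprr2f; each maximum came from leaving out a WT library with the highest count of its group. At 2 weeks they ranged from 1.99 to 2.46 for Gabrp, 2.39 to 3.11 for Muc4 and 5.15 to 5.94 for Lgi2. The WT values of the 4 genes rest on 0 to 33 counts per library, so depth limits each ratio.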
